A study of Mus musculus with 4 samples.

Results

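The genes described here guide growing axons and hold neurons to each other. They are the protocadherins, cadherins, neurexins, neuroligins, contactins, NCAM, L1CAM and CADM proteins, the LRRTM and LRRC4 synaptic organizers, the semaphorins with plexins and neuropilins, the Eph receptors with ephrins, the Slits with ROBO2, the netrin receptors, and DNER. Each was taken by the pattern of its symbol and not by its own values, while the families themselves were set with earlier results of these data known. The symbol patterns matched 129 of the 6352 transcripts of the table, with 128 symbols, since Pcdha11 is listed with 2 transcripts. Of these, 123 belong to the named families. The other 6 (Lrrc40, Lrrc41, Lrrc42, Lrrc47, Lrrc49 and Unc50) share only the first letters of a symbol with them and are counted but not described with the families.

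Adhesion molecules of the cadherin and immunoglobulin families bind across the gap between cell membranes, often to a copy of themselves. Guidance cues act as ligands of receptors on the growth cone: semaphorins bind plexins and neuropilins, ephrins bind Eph receptors, Slits bind Robo receptors, and netrins bind DCC and UNC5. Most of these proteins span the membrane or are secreted, so that they are made on ribosomes at the ER.

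The table holds ribosome footprints at the initiation sites of transcripts in cultured cortical neurons of mice. All cultures received harringtonine, which holds ribosomes at start codons, at 5 µg/ml for 3 min. There were 4 libraries, 1 for each condition and thus no replicates: *Ltn1* KO with Ttc3 RNAi (coded LTNSC, here KO SC), WT with Ttc3 RNAi (WTSC, here WT SC), *Ltn1* KO with scrambled control RNAi (LTNTTC, here KO TTC) and WT with scrambled control RNAi (WTTTC, here WT TTC). LTN1 is the E3 ubiquitin ligase that acts on stalled nascent chains, and TTC3 is another E3 ubiquitin ligase. The letters SC and TTC of the codes spell the opposite of the RNAi in the titles, so that libraries are named by genotype and code and no result is given as an effect of TTC3. How many animals went into a culture is not given in the labels. The target *Ltn1* itself had 37 reads (KO SC) against 10 (WT SC), and 0 (KO TTC) against 2 (WT TTC). *Ttc3*, counted in the same way, had 2 reads (KO SC) and 3 (WT SC) in the libraries titled Ttc3 RNAi, against 0 in both KO TTC and WT TTC. These few reads do not show a decrease in the libraries titled Ttc3 RNAi. The KO SC library also goes against its genotype label, if this start site lies in the deleted part, which is not known here, and directions between KO and WT below are those of the libraries labelled so.

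Values are reads per 1000000 reads of the library (RPM), and all could be turned back into whole reads. The libraries held 1460425 to 3655827 reads, so that 1 read was worth 0.274 to 0.685 RPM. The guidance and adhesion genes were sparse. The median of their mean level was 1.41 RPM, against 2.84 RPM over all transcripts, and the median gene had 2 to 5 reads in a library. Reads were present in all 4 libraries for 64 of the 129 transcripts, and 10 had 0 reads in each: Cdh12, Cdh20, Pcdhb20, Pcdh19, Plxnb1, Plxnc1, Sema4d, Sema5a, Sema6a and Lrrc41. A count of 0 allows up to 1.12 RPM (KO SC), 1.43 RPM (WT SC), 0.821 RPM (KO TTC) and 2.05 RPM (WT TTC), at 3 reads each. Intervals are 95% intervals and cover counting error only, since reads after PCR are not independent molecules.

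The cultures carried the markers of neurons, whose 11 markers summed to 2019 RPM (KO SC) against 1847 RPM (WT SC), and 1815 RPM (KO TTC) against 1741 RPM (WT TTC). None of the 7 microglial and none of the 5 endothelial markers was among the transcripts analysed here. The 8 measured astrocyte markers summed to 114 RPM (KO SC) against 193 RPM (WT SC), and 175 RPM (KO TTC) against 235 RPM (WT TTC), with at most 2 of them at 0 reads in a library. The 8 measured markers of the oligodendrocyte lineage summed to 11.97 RPM (KO SC), with 4 of them at 0 reads (Mbp included), against 38.6 RPM (WT SC) with 1 at 0 reads. They summed to 46.5 RPM (KO TTC) against 93.8 RPM (WT TTC), with none at 0 reads. The summed markers of inhibitory neurons and of progenitors were also lower in SC than in TTC for each genotype. The 4 measured markers of inhibitory neurons summed to 20.9 RPM (KO SC) against 54.4 RPM (KO TTC), and 33.4 RPM (WT SC) against 65.0 RPM (WT TTC). The 4 measured markers of progenitors summed to 23.9 RPM (KO SC) against 43.2 RPM (KO TTC), and 38.6 RPM (WT SC) against 58.2 RPM (WT TTC). At most 1 marker of either list was at 0 reads in a library. The summed markers of excitatory neurons went the other way. All 7 were measured, and their sums were 51.3 RPM (KO SC) against 43.5 RPM (KO TTC), and 72.0 RPM (WT SC) against 53.4 RPM (WT TTC). Single excitatory markers were split. From TTC to SC, 3 of the 7 rose and 4 fell in KO, while 4 rose and 3 fell in WT. In each library but KO TTC, 2 of the 7 were at 0 reads. The part of these cell classes in the differences given here was not tested. In bulk libraries, fewer cells of a type and fewer footprints per cell cannot be told apart.

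The start sites of the 129 transcripts together held 546 RPM (KO SC, interval 518 to 575) against 558 RPM (WT SC, 526 to 591), and 532 RPM (KO TTC, 509 to 556) against 582 RPM (WT TTC, 544 to 623). These intervals overlap within each pair. The immunoglobulin adhesion molecules, with 7 genes, had the largest sum of any family, at 224 RPM (KO SC, 206 to 242) against 189 RPM (WT SC, 171 to 208), and 239 RPM (KO TTC, 224 to 256) against 214 RPM (WT TTC, 191 to 239). The 31 clustered protocadherins held 65.5 RPM (KO SC) against 60.1 RPM (WT SC), and 50.9 RPM (KO TTC) against 52.7 RPM (WT TTC). Receptors for guidance cues were near the floor. Plexins and neuropilins summed to 10.8 RPM (KO SC, 7.27 to 15.6) against 4.77 RPM (WT SC, 2.29 to 8.77), and 13.7 RPM (KO TTC) against 14.4 RPM (WT TTC). Eph receptors and ephrins went the other way in the SC pair, at 10.5 RPM (KO SC, 6.96 to 15.1) against 28.1 RPM (WT SC, 21.4 to 36.3), and stood at 17.5 RPM (KO TTC) against 15.7 RPM (WT TTC). WT SC was thus the lowest library for plexins and neuropilins and the highest for Eph receptors and ephrins.

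**Figure D1:**
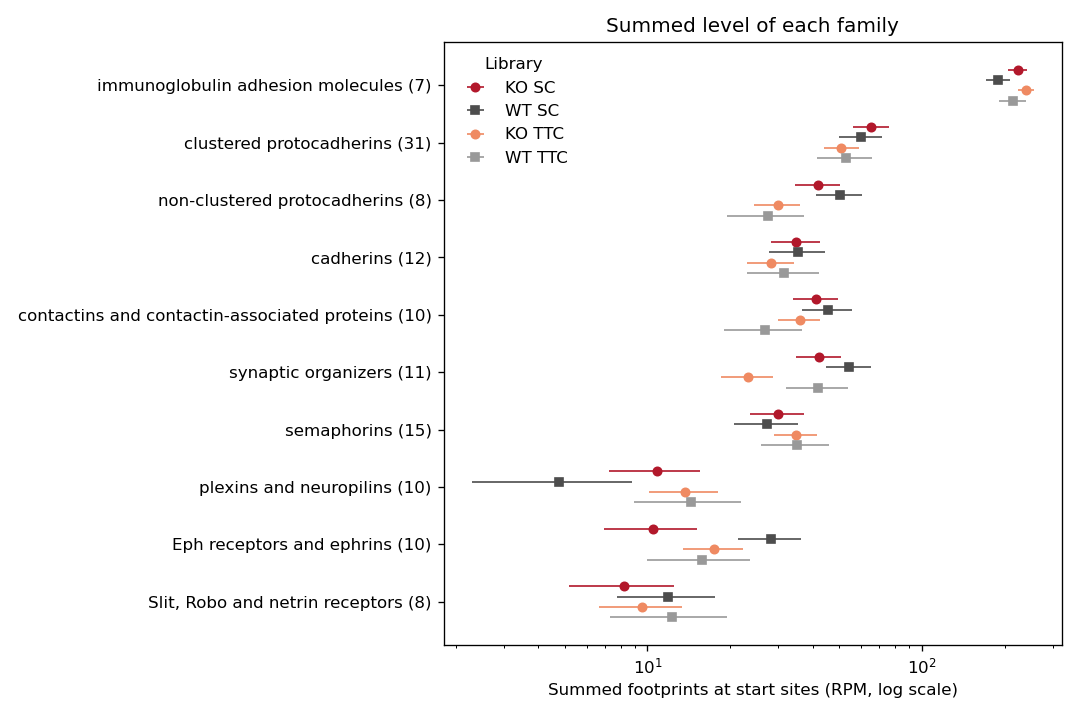
Summed footprints at the start sites of each family in RPM (horizontal axis, log scale), with the number of transcripts in brackets, in each of the 4 libraries; bars are exact Poisson 95% intervals. WT SC is lowest for plexins and neuropilins, at 4.77 RPM, and highest for Eph receptors and ephrins, at 28.1 RPM.

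Cadm3, a nectin-like adhesion molecule of neurons, had the highest mean level of these genes, 66.8 RPM. It stood at 52.0 RPM (KO SC) against 61.5 RPM (WT SC), and 89.4 RPM (KO TTC) against 64.4 RPM (WT TTC). KO TTC was high, and the intervals of the other libraries overlapped. The KO over WT ratio was 0.845 (0.660 to 1.08) in the SC pair (adjusted p = 0.514, two-sided exact binomial test on reads) and 1.39 (1.10 to 1.77) in the TTC pair (adjusted p = 0.0546, same exact test). Its relative Cadm1, an adhesion molecule that promotes synapse formation, stood at 66.6 RPM (KO SC) against 50.1 RPM (WT SC), and 49.2 RPM (KO TTC) against 53.4 RPM (WT TTC). Here KO SC was high, with a ratio of 1.33 (1.04 to 1.71) in the SC pair (adjusted p = 0.163, exact test). Cadm2 stood at 48.3 RPM (KO SC) against 37.2 RPM (WT SC), and 39.1 RPM (KO TTC) against 27.4 RPM (WT TTC), and did not pass in either pair. The neural cell adhesion molecule Ncam1 stood at 19.5 RPM (KO SC) against 13.8 RPM (WT SC), and 24.9 RPM (KO TTC) against 26.0 RPM (WT TTC). L1cam, the X-linked adhesion molecule of growing axons, stood at 27.3 RPM (KO SC) against 18.6 RPM (WT SC), and 23.8 RPM (KO TTC) against 35.6 RPM (WT TTC). Its KO over WT ratio was 1.47 (0.982 to 2.22) in the SC pair and 0.668 (0.469 to 0.961) in the TTC pair, and neither passed after adjustment (adjusted p = 0.278 and 0.166, exact tests). Ncam2 and Cadm4 were lower, with means of 7.11 and 2.42 RPM, and did not pass in either pair.

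There were 11 genes with a mean of at least 10 RPM, and the others were Dner, Cntn1, Lrrc4b, Cdh13, Pcdh11x and Lrrtm1. Cntn1, a GPI-anchored contactin of axons, stood at 27.7 RPM (KO SC) against 28.1 RPM (WT SC), and 23.3 RPM (KO TTC) against 13.7 RPM (WT TTC), so that WT TTC was low. Cdh13, a cadherin with a GPI anchor in place of a transmembrane segment, was even, at 11.6 RPM (KO SC) against 13.8 RPM (WT SC), and 15.0 RPM (KO TTC) against 15.1 RPM (WT TTC). Pcdh11x, an X-linked protocadherin, stood at 13.8 RPM (KO SC) against 15.3 RPM (WT SC), and 7.39 RPM (KO TTC) against 11.6 RPM (WT TTC). Neither Cdh13 nor Pcdh11x passed in any of the 4 comparisons, but Pcdh11x was higher in KO SC than in KO TTC after rescaling to the same sum (0.96 on the log2 scale, adjusted p = 0.0347, exact test) or by median-of-ratios factors (0.99, adjusted p = 0.0273, exact test).

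**Figure D2:**
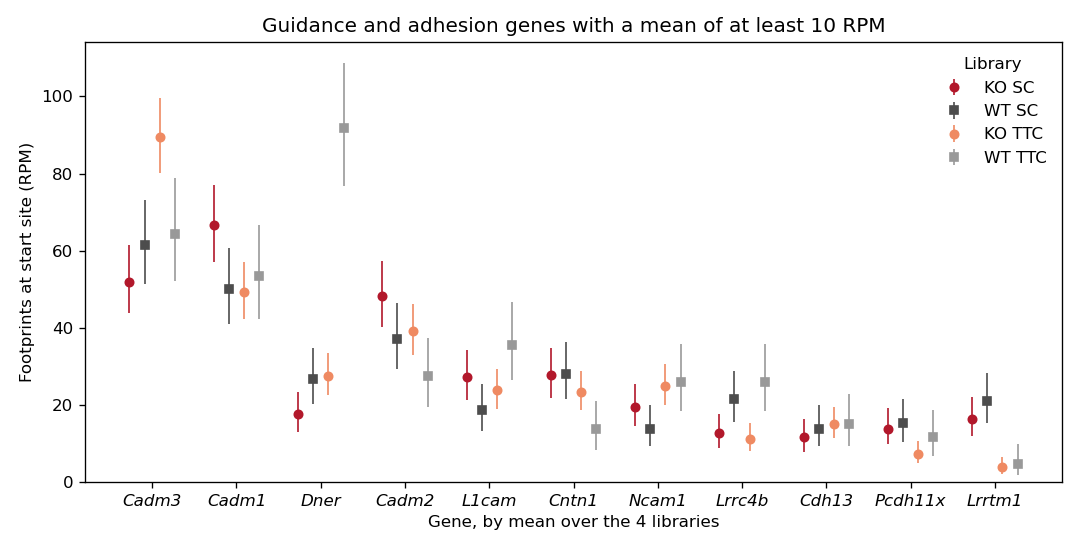
Footprints at the start site in RPM (vertical axis) of the 11 guidance and adhesion genes with a mean of at least 10 RPM (horizontal axis), in each of the 4 libraries; bars are exact Poisson 95% intervals. Dner in WT TTC, at 91.8 RPM, and Cadm3 in KO TTC, at 89.4 RPM, stand above the same genes in the other libraries.

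The libraries labelled *Ltn1* KO and WT were set against each other separately for SC and for TTC. For each transcript the reads were tested with the exact binomial test given the library totals, and p-values were adjusted by Benjamini-Hochberg over every transcript that had reads in the pair, with calls at an adjusted p of 0.05. This test compares libraries and not genotypes. In the SC pair 2 of the 106 guidance and adhesion genes with reads were called, against 7.38% of all transcripts. Efna2 and Pcdha4 were lower (4.74% of all) and 0 genes higher (2.63% of all). In the TTC pair 5 of 100 were called, against 7.54% of all. Dner, Lrrc4b, Lrrtm3 and Pcdha4 were lower (4.41% of all) and Sema3c was higher (3.14% of all). With median-of-ratios factors, 1 gene was higher in the SC pair (Cadm1) and 2 in the TTC pair (Sema3c and Cadm3), and over all transcripts the SC pair then held 178 called lower and 200 higher, in place of 254 and 141. Among genes with at least 20 reads in the pair, 0 of 30 were called in the SC pair (9.16% of all such transcripts) and 3 of 28 in the TTC pair (9.86%).

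By size alone, with at least a 2-fold difference of log2(RPM + 1), KO SC had 10 genes below WT SC and 12 above it (9.12% and 8.44% of all, 17.6% together). KO TTC had 11 below WT TTC and 11 above it (7.98% and 12.2% of all, 20.2% together). At any difference, 56 of the 129 were lower and 50 higher in KO SC (46.3% and 38% of all), and 57 lower and 43 higher in KO TTC (42.1% and 43.7% of all). The median difference was 0 in both pairs, as it was over all transcripts. Of the 129, 26 were lower in both pairs (20.2%, against 22.9% of all), 16 were higher in both (12.4%, against 19.2% of all), and 45 went in opposite directions (34.9%, against 34.2% of all).

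**Figure D3:**
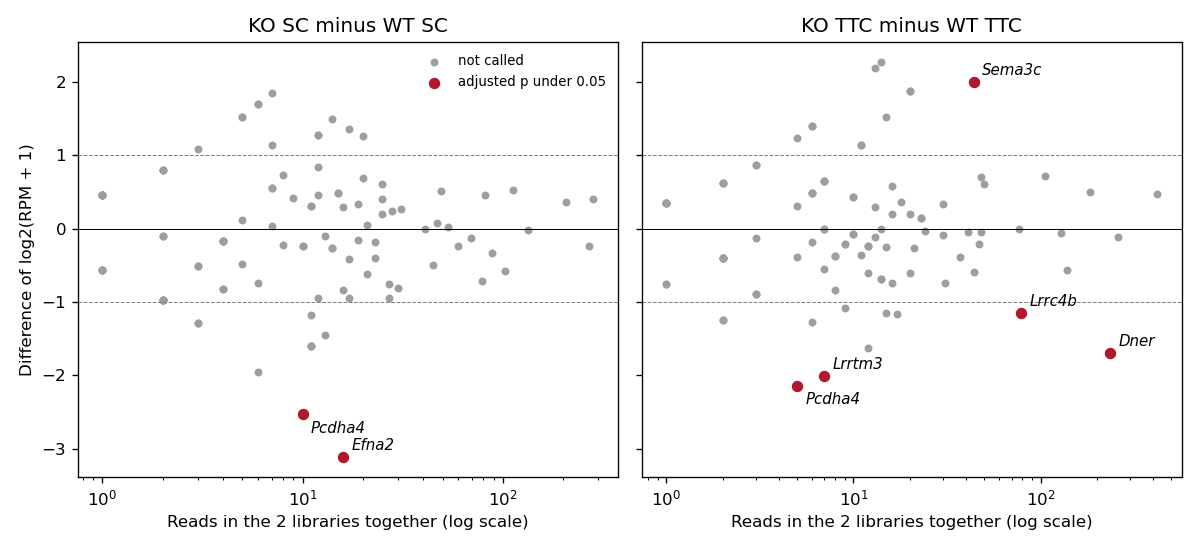
Difference of log2(RPM + 1), KO minus WT (vertical axes), against the reads in both libraries of the pair (horizontal axes, log scale), for the guidance and adhesion genes with reads, with SC libraries on the left and TTC libraries on the right; dashed lines mark a 2-fold difference, and larger red points are genes at an adjusted p under 0.05. Most points with over 100 reads lie between the dashed lines, with Dner at -1.70 in the TTC pair below them.

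Pcdha4 was the only gene of this group that was called in the same direction in both pairs. It encodes a protocadherin of the alpha cluster, whose isoforms give single neurons their own surface identity. It had 0 reads (KO SC) against 10 (WT SC), and 0 (KO TTC) against 5 (WT TTC). Both libraries labelled KO were therefore at 0, and both labelled WT were above it. With 3 reads taken as the floor of a library, Pcdha4 was 4.25-fold lower in KO SC (adjusted p = 0.00742, exact test). The same floor made it 4.17-fold lower in KO TTC (adjusted p = 0.0315, exact test). These folds are not minimum values, since the reads in WT also carry counting error. The upper limit of the KO over WT ratio was 0.350 for SC libraries, and for TTC libraries it was 0.436. Over all 6352 transcripts, 43 were called lower in both pairs, a share close to that of 1 in the 129 described here. These are few reads, and the coding sequences of the Pcdha isoforms are alike. How footprints that match several isoforms were assigned is not given in the sources used here.

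Lrrc4b, a postsynaptic organizer that binds receptor tyrosine phosphatases, was lower in KO than in WT in both pairs, and passed in the TTC pair. It stood at 12.7 RPM (KO SC) against 21.5 RPM (WT SC), and 11.2 RPM (KO TTC) against 26.0 RPM (WT TTC), with reads of 34 (KO SC) against 45 (WT SC), and 41 (KO TTC) against 38 (WT TTC). The ratio was 0.592 (0.368 to 0.946) in the SC pair (adjusted p = 0.164, exact test) and 0.431 (0.270 to 0.689) in the TTC pair (adjusted p = 0.00753, exact test). Its level did not pass between KO SC and KO TTC or between WT SC and WT TTC (adjusted p = 0.844 and 0.739, exact tests). The phosphatase Ptprs, a partner of this family, stood at 19.5 RPM (KO SC) against 14.8 RPM (WT SC), and 9.57 RPM (KO TTC) against 13.7 RPM (WT TTC). Lrrtm3, a postsynaptic organizer that binds neurexins, had the same order of genotypes at lower depth, with reads of 2 (KO SC) against 9 (WT SC), and 1 (KO TTC) against 6 (WT TTC). Its ratio was 0.174 (0.0183 to 0.842) in the SC pair (adjusted p = 0.122, exact test) and 0.0666 (0.00145 to 0.549) in the TTC pair (adjusted p = 0.0426, exact test).

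The presynaptic neurexins had few reads. Nrxn3 had 14 reads (KO SC) against 3 (WT SC), and 6 (KO TTC) against 0 (WT TTC). It did not pass in either pair (adjusted p = 0.193 and 0.540, exact tests). Between the TTC libraries reads are not of equal worth, at 0.274 RPM (KO TTC) and 0.685 RPM (WT TTC) for 1 read. The reads of Nrxn3 in KO TTC lay below the 2.05 RPM that 0 reads allow in WT TTC, and give no order there. Nrxn2 had 1 read (KO SC) against 3 (WT SC), and 4 (KO TTC) against 4 (WT TTC). Nlgn1, the neuroligin of excitatory synapses, was even, at 2.62 RPM (KO SC) against 3.34 RPM (WT SC), and 2.74 RPM (KO TTC) against 2.74 RPM (WT TTC). Lrrtm2, which also binds neurexins, had 6 reads (KO SC) against 0 (WT SC), and 2 (KO TTC) against 0 (WT TTC), and Lrrtm4, which binds heparan sulfate proteoglycans, had 5 reads (KO SC) against 0 (WT SC), and 1 (KO TTC) against 1 (WT TTC).

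Dner, which encodes a transmembrane Notch ligand of neurons, spans positions 84369839 to 84696221 of chromosome 1 (GRCm38.p6). It stood at 17.6 RPM (KO SC) against 26.7 RPM (WT SC), and 27.6 RPM (KO TTC) against 91.8 RPM (WT TTC), with reads of 47 (KO SC) against 56 (WT SC), and 101 (KO TTC) against 134 (WT TTC). WT TTC stood apart, with an interval of 76.9 to 109 RPM, while no interval of the other libraries reached above 34.7 RPM. The ratio of KO to WT was 0.658 (0.437 to 0.988) in the SC pair (adjusted p = 0.214, exact test) and 0.301 (0.230 to 0.393) in the TTC pair (adjusted p = 3.33e-16, exact test). An exact test on the 4 read counts, given their row and column sums, found that the ratio differed between the pairs (adjusted p = 0.0384). With this test 2 of the 129 genes passed, Dner and Efna2, against 184 of the 4642 transcripts that could be tested (3.96%). How many of the 129 could be tested is not given here.

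The ephrins are membrane-bound ligands of Eph receptors, and both sides signal on contact. Efna2, on chromosome 10 at 80179482 to 80190010, had 0 reads (KO SC) against 16 (WT SC), and 13 (KO TTC) against 0 (WT TTC). Against the floor of 3 reads, it was 6.80-fold lower in KO SC (adjusted p = 0.000176, exact test). In KO TTC it was 1.73-fold higher, which did not pass after adjustment (adjusted p = 0.169, exact test). The interval of the KO over WT ratio reached up to 0.203 in the SC pair and began at 1.22 in the TTC pair. The order of genotypes was thus opposite in the pairs, and the difference between them passed (adjusted p = 0.000269, exact test). Of its receptors of the A class, Epha5 had the same orders, with 3 reads (KO SC) against 10 (WT SC), and 14 (KO TTC) against 1 (WT TTC), and the difference between the pairs did not pass (adjusted p = 0.0902, exact test). Epha4 had 6 reads (KO SC) against 11 (WT SC), and 5 (KO TTC) against 2 (WT TTC). At the depth of the TTC libraries it was even there, at 1.368 RPM (KO TTC) against 1.369 RPM (WT TTC). Epha6 had 4 reads (KO SC) against 8 (WT SC), and 3 (KO TTC) against 2 (WT TTC). In RPM it was not higher in KO TTC, at 0.821 RPM against 1.37 RPM (WT TTC). Epha7 had 1 read (KO SC) against 0 (WT SC), and 8 (KO TTC) against 4 (WT TTC), so that nearly all its reads were in the TTC libraries. There it stood at 2.19 RPM (KO TTC) against 2.74 RPM (WT TTC). Of the other ephrins, Efnb2 was the highest, at 3.74 RPM (KO SC) against 4.29 RPM (WT SC), and 2.19 RPM (KO TTC) against 4.11 RPM (WT TTC), and did not pass in any comparison. Efnb3 and Efna3 had at most 4 reads in a library, and so did the receptors Epha3 and, apart from 6 reads in KO TTC, Ephb2.

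Among the semaphorins, secreted or membrane-bound cues of axons, Sema3c was the highest and the only one that passed between KO and WT. It stood at 10.1 RPM (KO SC) against 9.54 RPM (WT SC), and 11.2 RPM (KO TTC) against 2.05 RPM (WT TTC), with reads of 27 (KO SC) against 20 (WT SC), and 41 (KO TTC) against 3 (WT TTC). WT TTC was low and the other libraries were even. The ratio was 1.06 (0.572 to 1.99) in the SC pair and 5.46 (1.74 to 27.6) in the TTC pair (adjusted p = 0.0148, exact test), and the difference between the pairs did not pass (adjusted p = 0.152, exact test). Sema6d stood at 5.99 RPM (KO SC) against 4.29 RPM (WT SC), and 6.56 RPM (KO TTC) against 8.90 RPM (WT TTC), and Sema3a, the classical repellent of cortical axons, at 5.24 RPM (KO SC) against 2.86 RPM (WT SC), and 1.91 RPM (KO TTC) against 5.48 RPM (WT TTC). The receptors were near the floor. Nrp2 had 7 reads (KO SC) against 4 (WT SC), and 12 (KO TTC) against 4 (WT TTC), and Nrp1, which binds Sema3a, had 1 read in KO TTC and 0 in the others. Of the 8 plexins, Plxnb2 was the highest, at 3.74 RPM (KO SC) against 0.954 RPM (WT SC), and 6.29 RPM (KO TTC) against 4.79 RPM (WT TTC). No plexin passed in either pair.

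Robo2, a receptor for Slits, stood at 4.12 RPM (KO SC) against 5.72 RPM (WT SC), and 4.92 RPM (KO TTC) against 8.90 RPM (WT TTC), lower in KO in each pair without passing (adjusted p = 0.829 and 0.407, exact tests). Slit3 had 3 reads (KO SC) against 8 (WT SC), and 6 (KO TTC) against 3 (WT TTC). In RPM it was not higher in KO TTC, at 1.64 RPM against 2.05 RPM (WT TTC). Slit1 and Slit2 had 1 read each over all libraries. The netrin receptors Unc5a, Unc5c, Unc5d and Dcc had at most 6 reads in a library.

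The SC and TTC libraries were then compared for each genotype. These comparisons share their libraries with those above. Between KO SC and KO TTC, 12 of the 109 genes with reads were called, against 16.6% of all transcripts, with 5 lower and 7 higher in KO SC (10.9% and 5.71% of all). Between WT SC and WT TTC, 10 of 108 were called, against 10.8% of all, with 3 lower and 7 higher in WT SC (7.02% and 3.82% of all). The split over all transcripts moved with the scaling of the libraries. Rescaled to the same sum, the KO libraries held 410 transcripts called lower and 401 higher in place of 613 and 321, and the guidance and adhesion genes 3 lower and 8 higher. With at least 20 reads in the pair, 3 of 33 were called between the KO libraries (20.4% of all) and 6 of 22 between the WT libraries (14.1% of all). By size alone, at a 2-fold difference, 11 were lower and 17 higher in KO SC (12.5% and 7.3% of all, 19.8% together), and 9 lower and 16 higher in WT SC (13.4% and 12.4% of all, 25.8% together). At any difference, 56 were lower and 53 higher in KO SC (51.5% and 37.1% of all), and 50 lower and 58 higher in WT SC (43.3% and 40.9% of all).

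Lrrtm1, another postsynaptic organizer that binds neurexins, was the only gene of this group called in the same direction in both genotypes. It stood at 16.5 RPM (KO SC) against 3.83 RPM (KO TTC), and 21.0 RPM (WT SC) against 4.79 RPM (WT TTC), with reads of 44 (KO SC) against 14 (KO TTC), and 44 (WT SC) against 7 (WT TTC). Both SC libraries were above both TTC libraries. The ratio was 4.30 (2.31 to 8.49) in KO (adjusted p = 1.34e-05, exact test) and 4.38 (1.96 to 11.5) in WT (adjusted p = 0.00126, exact test). Between KO and WT it did not pass (adjusted p = 0.645 and 0.918, exact tests). How many of all transcripts were called in the same direction in both genotypes was not counted. Called higher in SC were 5.71% of all in KO and 3.82% in WT. Cdh9, a type II cadherin of synapses, had 15 reads (KO SC) against 0 (KO TTC), and 10 (WT SC) against 0 (WT TTC). Against the floor of 3 reads, it was 6.84-fold higher in KO SC (adjusted p = 7.52e-05, exact test). In WT SC it was 2.32-fold higher, which did not pass (adjusted p = 0.0609, exact test). The interval of the SC over TTC ratio began at 4.91 in KO and 1.56 in WT. Pcdh10, a non-clustered protocadherin, stood at 7.86 RPM (KO SC) against 3.56 RPM (KO TTC), and 11.4 RPM (WT SC) against 2.05 RPM (WT TTC), and passed in WT alone (adjusted p = 0.111 in KO and 0.0176 in WT, exact tests). Of the other cadherins, Cdh6 stood at 6.36 RPM (KO SC) against 4.10 RPM (KO TTC), and 3.82 RPM (WT SC) against 3.42 RPM (WT TTC) and Cdh2, the N-cadherin of neurons, at 2.99 RPM (KO SC) against 2.19 RPM (KO TTC), and 4.29 RPM (WT SC) against 6.16 RPM (WT TTC), and neither passed.

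Efna2 passed in both genotypes in opposite directions, lower in KO SC (adjusted p = 0.0103, exact test) and higher in WT SC (adjusted p = 0.00727, exact test). Among the KO libraries, Cadm3 (ratio 0.581), Pcdh1, Pcdhga4 and Sema4f were also lower in KO SC, and Cadm1 (ratio 1.35), Pcdha3, Cntnap3 and both Pcdha11 transcripts were higher there. Sema4f had 2 reads (KO SC) against 17 (KO TTC), Pcdh1 0 against 10, and Cntnap3, a contactin-associated protein, 6 against 0. Among the WT libraries, Dner (ratio 0.291), L1cam (0.523) and Sema4g were lower in WT SC, and Cntn1 (2.06), Lrrc42, Pcdh8 and Sema3c were higher. Sema4g had 0 reads (WT SC) against 8 (WT TTC), Pcdh8 17 against 1, and Lrrc42, matched by letters only, 12 against 0. Rescaled to the same sum, 4 of these calls no longer passed, with differences close to those before. L1cam stood at -0.80 in place of -0.90 on the log2 scale (adjusted p = 0.0663, exact test), Pcdh1 at -1.87 in place of -1.90 (adjusted p = 0.0518, exact test), Sema4f at -1.61 in place of -1.69 (adjusted p = 0.0555, exact test) and Sema3c at 1.86 in place of 1.79 (adjusted p = 0.0502, exact test). By median-of-ratios factors the first 3 of them did not pass either.

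**Figure D4:**
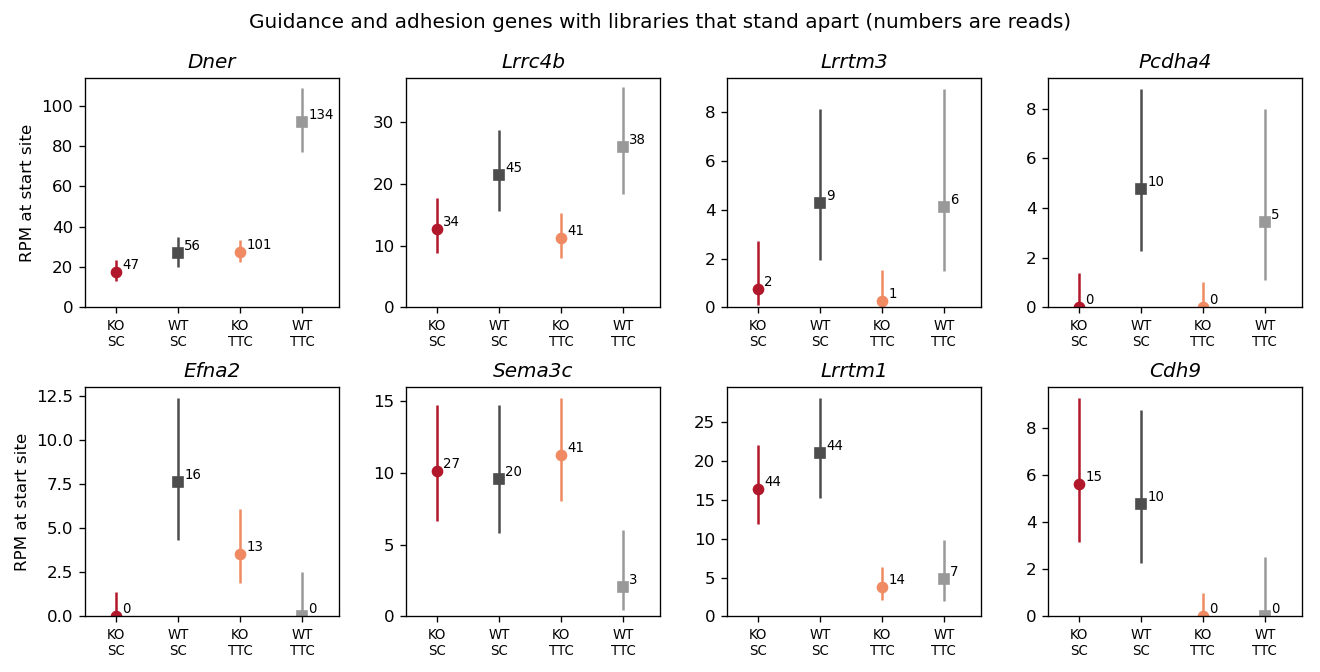
Footprints at the start site in RPM (vertical axes) in the 4 libraries (horizontal axes) for 8 genes, with reads as printed numbers and bars for exact Poisson 95% intervals. Lrrc4b, Lrrtm3 and Pcdha4 are lower in both KO libraries than in the WT library of the same code, Lrrtm1 and Cdh9 are higher in both SC libraries, and WT TTC stands apart for Dner and for Sema3c.

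The 31 clustered protocadherin transcripts, all on chromosome 18, lie in the alpha, beta and gamma clusters, and in alpha and gamma variable first exons join shared downstream exons. The gamma cluster, with 17 transcripts, was even, at 41.9 RPM (KO SC) against 40.1 RPM (WT SC), and 42.7 RPM (KO TTC) against 39.0 RPM (WT TTC). Its C-type isoforms Pcdhgc4 and Pcdhgc3, which are not subject to random choice in each neuron, led the cluster. Pcdhgc4 stood at 11.97 RPM (KO SC) against 8.11 RPM (WT SC), and 10.9 RPM (KO TTC) against 6.85 RPM (WT TTC), and Pcdhgc3 at 8.60 RPM (KO SC) against 8.59 RPM (WT SC), and 8.75 RPM (KO TTC) against 10.3 RPM (WT TTC). Pcdhga4 had 0 reads (KO SC) against 19 (KO TTC), and 2 (WT SC) against 1 (WT TTC). Against the floor of 3 reads, it was 4.63-fold lower in KO SC than in KO TTC (adjusted p = 0.000967, exact test). The interval of that ratio reached up to 0.293.

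The alpha cluster, with 11 transcripts, summed to 20.6 RPM (KO SC, 15.5 to 26.8) against 8.21 RPM (KO TTC, 5.54 to 11.7), and 18.1 RPM (WT SC, 12.8 to 24.9) against 13.7 RPM (WT TTC, 8.37 to 21.2). The intervals of the KO libraries did not overlap. KO SC had 1 of the 11 at 0 reads, and KO TTC, the deepest library, had 8. Pcdha3 had 6 reads (KO SC) against 0 (KO TTC), and 10 (WT SC) against 0 (WT TTC). Pcdha11 had 6 and 7 reads for its 2 transcripts in KO SC, 1 and 0 in WT SC and 0 in both TTC libraries, and whether these are the same footprints counted for both cannot be told from the table. Pcdha5 was even, at 3.74 RPM (KO SC) against 2.86 RPM (WT SC), and 4.65 RPM (KO TTC) against 4.79 RPM (WT TTC). The 3 transcripts of the beta cluster had 8 reads in KO SC, 4 in WT SC and 0 in both TTC libraries.

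Reads varied between libraries by more than counting error allows. Among guidance and adhesion genes with at least 20 reads, the mean Pearson statistic, which is near 1 for counting error alone, was 1.76 in the SC pair (30 genes) and 5.86 in the TTC pair (28 genes), against 3.28 and 3.17 over all such transcripts. Without Dner, left out after seeing the data, it came to 1.67 (SC pair) and 2.61 (TTC pair). Between KO SC and KO TTC it was 3.97 (3.89 without Dner), against 5.12 over all, and between WT SC and WT TTC 6.31 (3.37 without Dner), against 4.15 over all. A model with terms for genotype and code was fitted to the reads of all 4 libraries with edgeR's quasi-likelihood test, and covered 55 of the 129. For genotype it called 0 after adjustment, and at an unadjusted p of 0.05 it had 2 lower (Dner and Lrrc4b) and 0 higher, against 4.05% and 2.62% of all tested. For code it called 0 after adjustment, and at an unadjusted p of 0.05 it had 1 lower (Dner) and 3 higher in SC (Lrrtm1, Cdh9 and Pcdh10), against 9.21% and 4.13%. It called 0 of all 3703 transcripts it tested, for either term.

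Other genes of the same pathways were counted from lists of symbols. The first held 20 measured cues and receptors outside the group, among them teneurins, latrophilins, FLRT and SLITRK proteins and reelin. None passed in either KO and WT pair (exact binomial test), against 7.38% (SC pair) and 7.54% (TTC pair) of all. There were 9 lower and 9 higher in KO SC (46.3% and 38% of all). In KO TTC, 6 were lower and 13 higher (42.1% and 43.7% of all). Of 29 measured effectors inside the cell, 4 were called lower (4.74% of all) and none higher (2.63% of all) between the SC libraries, given as KO SC against WT SC. They were Limk1, a kinase that restrains cofilin (2.99 against 11.4 RPM), Farp1, an exchange factor of small GTPases (2.24 against 8.59 RPM), Crmp1, a mediator of semaphorin signals (7.48 against 18.1 RPM), and Cdc42, a small GTPase of the cytoskeleton (53.5 against 76.3 RPM). In the TTC pair they did not pass. There, Limk1 stood at 7.66 RPM (KO TTC) against 15.1 RPM (WT TTC), but the other 3 were not lower in KO TTC: Farp1 stood at 7.11 RPM (KO TTC) against 4.11 RPM (WT TTC), Crmp1 at 32.6 against 26.7 RPM and Cdc42 at 53.1 against 49.99 RPM. In that pair 1 effector was called lower and 1 higher (4.41% and 3.14% of all). The cofilin gene Cfl1 was higher, at 490 RPM (KO TTC) against 388 RPM (WT TTC). Both SC libraries were below these levels, at 235 RPM (KO SC) against 248 RPM (WT SC). Between KO SC and WT SC, Cfl1 did not pass (adjusted p = 0.744, exact test). Rnd2, a GTPase of neuron migration, was lower in KO TTC, with 14 reads in WT TTC and 0 in the other libraries. Of 20 catenins and membrane scaffolds, which tie adhesion molecules to the cytoskeleton, none passed in either pair (exact binomial test). The shares of all were 7.38% (SC pair) and 7.54% (TTC pair).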

How the data were processed

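The authors deposited footprints at initiation sites as RPM for 6352 transcripts. The submitters' processing notes name Bowtie, SAMtools, bedtools and GRCm38/mm10. The window counted, the annotation and the treatment of reads with several matches are not given in the sources used here. Each RPM value was a whole number of reads (100% within 1e-06 of a read), which returned the library totals. Symbols came, by transcript identifier, from a supplementary gene list of the study for 6351 transcripts, 38 of them after an extra 0 in the identifier was dropped. Its column of KO and WT differences was not used. Gene positions are from RefSeq (GRCm38.p6).

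Differences are of log2(RPM + 1), which understates changes of low genes. Library pairs were tested on reads with two-sided exact conditional binomial tests, and the difference between pairs with an exact test given both margins, each with Benjamini-Hochberg adjustment over all transcripts that could be tested. Ratios have exact conditional intervals and levels exact Poisson intervals. The alternative edgeR fit used transcripts with at least 20 reads and had 1 residual degree of freedom.

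The families and lists were chosen with earlier results of these data known, and their members then by symbol alone. Genes were named by rule if they passed an exact test in any comparison, had a mean of at least 10 RPM, had the highest mean of their family, were at 0 reads in both libraries of a genotype or code with at least 10 in each of the others, were at 0 in all 4, or were ligand or receptor partners of a gene that passed. From the pathway lists, those that passed between KO and WT were named. Other names were chosen after their values were seen. No sequence is printed, and some single genes are not reported here. Python 3.11.15, numpy 2.4.6, pandas 2.3.3, scipy 1.17.1, matplotlib 3.10.9, R 4.3.3 and edgeR 4.0.16 were used.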

Additional observations from a re-analysis of the deposited data

Results flagged for a closer look

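The KO over WT ratio of reads differed between the SC pair and the TTC pair for 2 of the 129 guidance and adhesion genes, by the exact test given both margins. Of all transcripts that could be tested, 3.96% passed. For Efna2 the adjusted p was 0.000269 (exact test), with 0 reads (KO SC) against 16 (WT SC), and 13 (KO TTC) against 0 (WT TTC). For Dner the adjusted p was 0.0384 (exact test), with 47 reads (KO SC) against 56 (WT SC), and 101 (KO TTC) against 134 (WT TTC), in libraries of unequal depth.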

How the results depend on the processing

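Calls rest on few reads in 1 library per condition, and depth limits most of these genes to large differences. Counts are given as lower and higher, in the order KO SC over WT SC, KO TTC over WT TTC, KO SC over KO TTC and WT SC over WT TTC. By size, a pseudocount of 0.1 RPM gave 28 and 23, 21 and 24, 30 and 28, and 26 and 35. A 3-fold threshold gave 6 and 3, 4 and 5, 4 and 6, and 3 and 9. The 23 genes with a mean of at least 5 RPM gave 0 and 0, 2 and 1, 1 and 1, and 1 and 3. Their median differences were 0.0026, -0.062, -0.022 and -0.091. Over all transcripts at that filter the medians were -0.105, -0.047, -0.170 and -0.096. Without clustered protocadherins, which left 98, KO SC had 7 above WT SC and 10 above KO TTC (8.44% and 7.3% of all at the main setting). Shares over all transcripts were not counted by size for the other pseudocount, threshold or filter.

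For the exact binomial test, the 5 RPM filter left 0 of the 23 genes lower in the SC pair, and 2 lower and 2 higher in the TTC pair. Between the KO libraries 2 were lower and 2 higher, and between the WT libraries 4 were higher. In the test between pairs 1 gene passed. Over the 2314 transcripts at that filter, the binomial test called 175 lower and 70 higher, 150 and 108, 416 and 154, and 239 and 136, in the same order of comparisons. At least 20 reads in the pair, chosen after seeing the data, gave 0 lower in the SC pair and 2 lower in the TTC pair. Between the KO libraries it gave 1 lower and 2 higher, and between the WT libraries 4 higher. Of all transcripts with as many reads, 9.16%, 9.86%, 20.4% and 14.1% were called in either direction, in the same order of comparisons. Without clustered protocadherins, 1 of 77 with reads was lower in the SC pair (4.74% of all). In the same set, 4 of 84 were higher in KO SC than in KO TTC (5.71% of all). Median-of-ratios factors gave 1 higher in the SC pair. These factors and rescaling to the same sum each gave 2 higher in the TTC pair and 3 lower between the KO libraries. Over all transcripts they gave 195 and 186 higher in the TTC pair, in place of 171. Between the KO libraries they gave 388 and 410 lower, in place of 613. L1cam, Pcdh1 and Sema4f lost their call between codes under both scalings, and Sema3c in WT under the same sum. The edgeR model called 0 in every comparison and direction, and its code term for Efna2, shared by both genotypes, was 0.15 (log2), against the direction found between the KO libraries. Apart from changes that follow from fewer genes or another threshold, the cause was not tested. The edgeR model compares KO and WT with code as a term, and so pairs the libraries by code. No paired analysis was possible because each condition has 1 library, where pairing by replicate number is meant.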

Other observations

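Genes with reads on one side only were counted after their values were seen. With 0 reads in both TTC libraries and at least 5 reads in the SC libraries together, there were 8 of the 129 transcripts (6.20%), against 3.97% of all 6352: Cdh9, Cntnap3, Pcdha1, Pcdha3, Pcdhb9, Pcdhb19 and both of Pcdha11. All but Cdh9 and Cntnap3 are clustered protocadherins. The reverse, 0 reads in both SC libraries with at least 5 in the TTC libraries, held for 3 (2.33%, against 4.77% of all): Cntnap4, Epha3 and Sema4c. With 0 reads in both KO libraries and at least 5 in the WT libraries there was 1, Pcdha4 (0.775%, against 1.97% of all), and with 0 reads in both WT libraries and at least 5 in the KO libraries there were 4 (3.10%, against 4.69%): Lrrtm2, Pcdha1, Sema4c and a transcript of Pcdha11.

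The named families without the clustered protocadherins are long genes, with a median RefSeq gene span of 162 kb over 92 genes, against 28.2 kb over the 6169 transcripts with a RefSeq position.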
